A study of Homo sapiens with 6 samples.

Results

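The genes described here are 31 genes of mitochondrial and peroxisomal fatty acid oxidation. They were chosen by name for their place in the pathway, with earlier results of these data known. Each matched 1 row of a table of 60605 genes. They were measured in Huh-7 cells, an established human hepatoma line, in 2 groups. Before treatment, the cells of both groups were given 100 µM oleic acid for 24 h, an inducer of lipid storage, and were starved. The treated group (labelled Experimental, 3 libraries) was then kept for 24 h in 100 µM of the flavone pectolinarigenin. The control group received the vehicle DMSO, with 0 µM pectolinarigenin (labelled Control, 3 libraries). All cells are of 1 tumour line, there was no group without oleic acid, and there was 1 dose and 1 time. Whether each library is a culture of its own is not stated, and the p-values reflect the variation among the libraries alone, part or all of which may be technical.

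Fatty acid oxidation shortens acyl-CoA molecules by repeated rounds of dehydrogenation, hydration, a second dehydrogenation and thiolysis. Long-chain acyl groups enter mitochondria as carnitine esters, and the electrons of the first step pass through the electron transfer flavoprotein to the respiratory chain. Peroxisomes hold a parallel set of enzymes for very long-chain and branched acyl groups and for bile acid side chains. An unsaturated fatty acid such as oleic acid also needs auxiliary isomerases, and polyunsaturated ones a reductase. In liver the nuclear receptor PPARA activates many of these genes during fasting, and hepatocytes turn part of the acetyl-CoA into ketone bodies.

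Total counts per library were 16054283, 16297404 and 20311261 in pectolinarigenin libraries 1 to 3, against 18619775, 18652800 and 15140022 in control libraries 1 to 3. On log2(FPKM + 1), the first principal component separated the groups and held 70.5% of the variance, and the second (10.2%) set pectolinarigenin library 3 apart from the other treated libraries. Hepatocyte markers were all detected (10 of 10 at a mean of at least 1 FPKM). Their summed level was 8900 to 9675 FPKM in pectolinarigenin libraries, against 12240 to 12440 FPKM in control libraries. Most of it was ALB (mean 3530 FPKM in treated and 5475 FPKM in control cells) and AFP (3919 and 4815 FPKM). Of the 10, 8 were lower in treated cells and 0 higher (edgeR), where 25.3% of all tested genes were lower and 25.3% higher. In bulk RNA of this 1 line, fewer cells expressing a gene and less of its RNA per cell cannot be told apart. Markers of cholangiocytes (mostly SOX9 and EPCAM, with KRT7 near 0) summed to 101.1 to 103.2 FPKM in pectolinarigenin libraries and 94.4 to 95.4 FPKM in control libraries. Endothelial, stromal and immune markers summed to at most 2.26 FPKM each in pectolinarigenin libraries and at most 3.67 FPKM in control libraries. COL1A2 and DCN were listed at 0 FPKM throughout, COL1A2 with 1 count in control library 1. Mitochondrially encoded genes took 4.81% to 5.64% of counts in pectolinarigenin libraries and 5.18% to 5.38% in control libraries. Their part in the results below was not tested.

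Of the 31 genes, 29 passed the expression filter, a mean of at least 1 FPKM over the 6 libraries, and these 29 had a mean of at least 1 FPKM in each group. With pectolinarigenin 9 of them rose and 9 fell (edgeR, adjusted p under 0.05), and 11 did not pass. That is 62.1% of the tested genes of the pathway, where 50.6% of all 12829 tested genes were called, 25.3% higher and 25.3% lower. Their median log2 fold change was -0.020, beside 0.0007 over all tested genes, and their median absolute value was 0.29, beside 0.245. In 19 of the 29 (65.5%) the FPKM values of the groups did not overlap, where 58.9% of all tested genes had no overlap. Of the 29, 1 gene, PDK4, passed the test with a change of more than 2-fold, as did 3.87% of all tested genes. Genes that rose were CPT1A, ACADVL, ACADM, ACAA2, ETFB, ETFDH, HSD17B4, ACAA1 and PDK4. Those that fell were CPT2, ACADS, HADH, ECI2, DECR1, ACOX3, EHHADH, DECR2 and ACOT2.

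**Figure D1:**
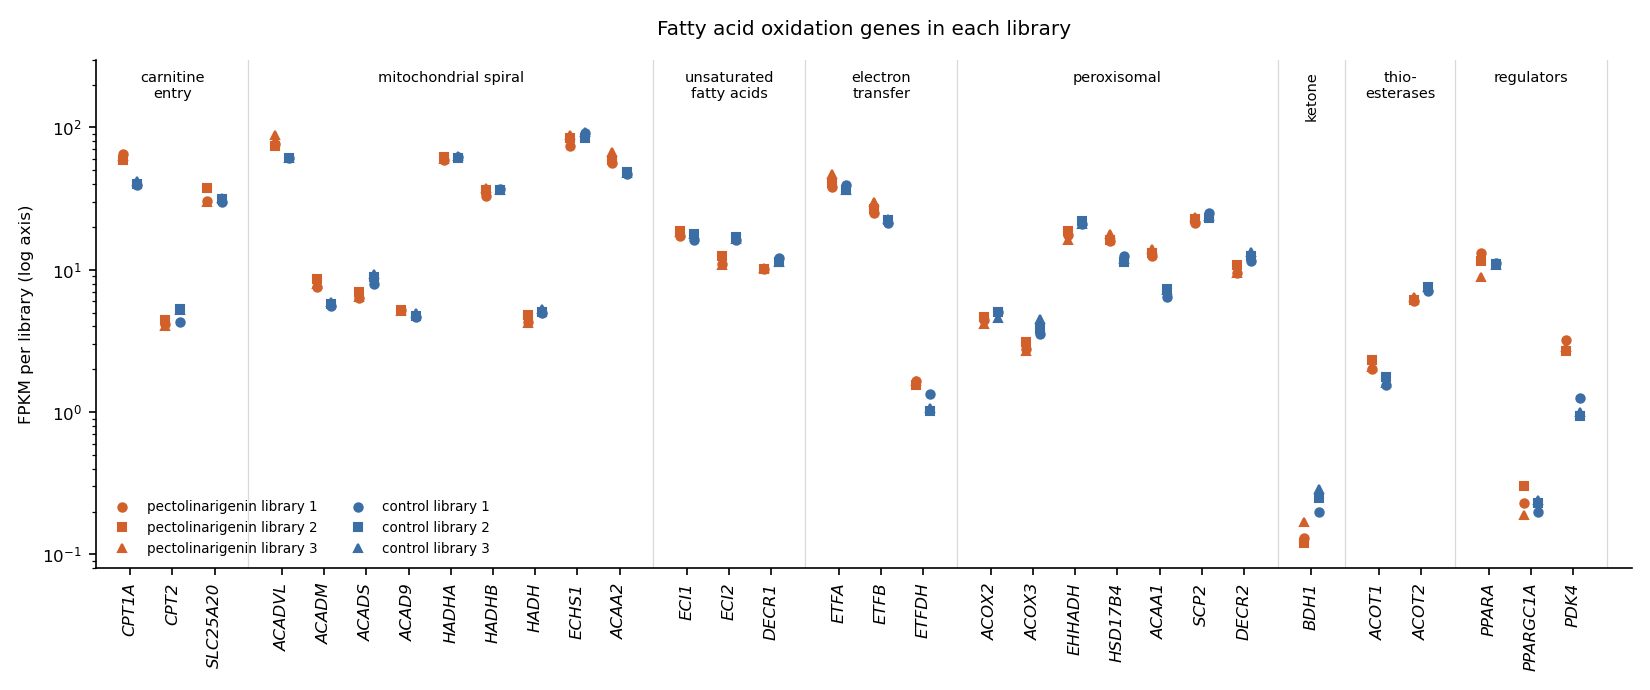
FPKM of the 31 fatty acid oxidation genes in each library on a log axis, by role, with pectolinarigenin libraries in orange left of control libraries in blue and 1 symbol per library number. The 3 ACAA1 values of treated cells (12.4 to 14.0 FPKM) all lie above those of control cells (6.43 to 7.29 FPKM), while those of HADHA overlap.

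Upstream sequences are shown for 3 places in the pathway where the data contrast: PDK4, the largest rise among the tested genes, ECI2, the largest fall among them, and HADHB, whose ratio to its neighbour HADHA overlapped between groups. RefSeq promoter windows (GRCh38.p14) matched 24 of the 31 genes, with 34 windows in all. ACAA1, EHHADH, ETFDH, ACOX2, DECR1, DECR2 and ACOT1 had no window and were not searched. The sequences are given 5′ to 3′ on the strand of the named gene and end at the base before its RefSeq start. They are PDK4 at chr7:95596517-95596766 (minus strand), ECI2 at chr6:4135576-4135825 (minus strand) and HADHB at chr2:26244739-26244938 (plus strand). For HADHB only the 200 bases nearest its start are shown, part of the stretch between it and HADHA, which is read the other way. Capitals mark GC boxes (GGGCGG on either strand) and CCAAT boxes (CCAAT on either strand).
PDK4: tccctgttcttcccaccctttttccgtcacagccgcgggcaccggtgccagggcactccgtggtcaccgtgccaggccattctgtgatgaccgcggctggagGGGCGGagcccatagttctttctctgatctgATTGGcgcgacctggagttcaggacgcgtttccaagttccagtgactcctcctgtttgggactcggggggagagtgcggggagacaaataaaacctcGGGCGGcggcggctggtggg
ECI2: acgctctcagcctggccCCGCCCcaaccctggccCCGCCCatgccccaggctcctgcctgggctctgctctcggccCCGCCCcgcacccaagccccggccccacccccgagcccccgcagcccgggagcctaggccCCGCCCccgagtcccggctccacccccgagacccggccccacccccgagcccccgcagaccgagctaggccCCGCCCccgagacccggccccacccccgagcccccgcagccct
HADHB: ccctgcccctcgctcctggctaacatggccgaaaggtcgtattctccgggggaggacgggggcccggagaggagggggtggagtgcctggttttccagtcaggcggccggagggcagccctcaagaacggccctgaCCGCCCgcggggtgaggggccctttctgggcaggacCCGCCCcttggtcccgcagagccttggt

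The PDK4 sequence holds 2 GC boxes and 1 CCAAT box, that of ECI2 5 GC boxes, and that beside HADHB 2 GC boxes. Over the 250 bases before each start, GGGCGG occurred in 24 of the 34 windows of the pathway (70.6%) and in 42.6% of all 35116 windows. CCAAT occurred in 5 of 34 (14.7%), against 32.0% of all windows. The direct repeat bound by PPARA with its partner RXR, written as 2 copies of AGGTCA with 1 base N between them, occurred in 0 of the 34 windows and in 0.0171% of all windows. A single AGGTCA occurred in 0 of the 34 and in 12.1% of all windows, both strands counted. The median GC content of all windows was 58.0%, and most of the 34 windows lay above it. The part of base composition in these shares was not tested. The windows of ECI2 overlap each other, as do those of ACOT2 and those of HADHA and HADHB, so the 34 are not independent. These are matches of letters in short windows, and elements outside them were not searched.

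Of the 3 genes of carnitine entry 1 rose, 1 fell and 1 did not pass, where 25.3% of all tested genes rose and 25.3% fell. CPT1A, the outer membrane carnitine palmitoyltransferase that is the controlled step of long-chain entry (ENSG00000110090, chromosome 11, 68754620 to 68844410, minus strand, GENCODE 29 on GRCh38), had 64.5, 59.2 and 63.0 FPKM in pectolinarigenin libraries 1 to 3, against 39.2, 40.0 and 41.8 FPKM in control libraries 1 to 3. All treated values lay above all control values, a 1.50-fold rise (log2 fold change 0.59, SE 0.057, edgeR, adjusted p = 1e-06). CPT2, which returns the acyl group from carnitine to CoA inside the mitochondrion, had 4.17, 4.45 and 4.02 FPKM in treated libraries, against 4.30, 5.27 and 5.18 FPKM in control libraries. It fell, with control library 1 inside the range of the treated ones (log2 fold change -0.26, SE 0.0795, edgeR, adjusted p = 0.0131). Without control library 2 or 3 CPT2 no longer passed (edgeR, adjusted p = 0.0862 and 0.0688), nor did it in limma on log2(FPKM + 1) (adjusted p = 0.0953). SLC25A20, the inner membrane exchanger of carnitine and acylcarnitine, had 30.2, 37.7 and 30.0 FPKM in treated libraries, against 30.0, 31.2 and 31.8 FPKM in control libraries. Its groups overlapped, with treated library 2 alone high, and it did not pass (log2 fold change 0.036, SE 0.079, edgeR, adjusted p = 0.731). In FPKM, CPT1A exceeded CPT2 by 15.5, 13.3 and 15.7 times in treated libraries and by 9.11, 7.60 and 8.07 times in control libraries. That ratio was chosen after its values were seen and is given without a test.

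In the mitochondrial spiral 3 of 9 genes rose, 2 fell and 4 did not pass, where 25.3% of all tested genes rose and 25.3% fell. The acyl-CoA dehydrogenases, which take the first step and differ in chain length, went both ways. ACADVL, the enzyme for very long and long chains, had 76.3, 74.5 and 88.8 FPKM in pectolinarigenin libraries, against 60.5, 61.2 and 61.4 FPKM in control libraries. The groups did not overlap, and treated library 3 was the highest (log2 fold change 0.35, SE 0.069, edgeR, adjusted p = 0.000607; 0.26 without treated library 3). ACADM, the medium-chain enzyme, had 7.58, 8.65 and 7.90 FPKM in treated libraries, against 5.54, 5.70 and 5.96 FPKM in control libraries, again with no overlap (log2 fold change 0.45, SE 0.061, edgeR, adjusted p = 2.65e-05). ACADS, the short-chain enzyme, moved the other way, with 6.33, 6.94 and 6.47 FPKM in treated libraries, against 7.93, 8.90 and 9.32 FPKM in control libraries. Every treated value of ACADS was below every control value (log2 fold change -0.44, SE 0.089, edgeR, adjusted p = 0.000787). ACADM stood at 1.2 to 1.25 times the FPKM of ACADS in treated libraries and at 0.639 to 0.699 times in control libraries, a ratio given without a test because it was chosen after its values were seen. In counts ACADM exceeded ACADS in both groups (5828 and 903 in treated, 4128 and 1186 in control libraries), with listed exons of 4783 and 2648 bases. The level of this ratio depends on the gene lengths behind the FPKM, which are not given. ACAD9, known mainly as an assembly factor of respiratory complex I, averaged 5.18 ± 0.04 FPKM in treated cells and 4.797 ± 0.18 FPKM in control cells (SD, n = 3 each) and did not pass (log2 fold change 0.073, SE 0.058), although its groups did not overlap. ACADM shares 3.28% of its exon bases with RABGGTB on the same strand, and reads there cannot be assigned from the table.

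Of the later steps of the spiral, HADH fell, ACAA2 rose and the other genes did not pass. HADHA and HADHB encode the subunits of the trifunctional protein, which carries out hydration, dehydrogenation and thiolysis of long chains at the inner membrane, and they lie side by side on chromosome 2, on opposite strands. HADHA (26190635 to 26244726, minus strand) had 58.9, 61.6 and 60.1 FPKM in pectolinarigenin libraries, against 62.1, 60.8 and 62.5 FPKM in control libraries. HADHB (26243170 to 26290468, plus strand) had 32.9, 36.2 and 37.2 FPKM in treated libraries, against 36.9, 36.4 and 36.3 FPKM in control libraries. Both overlapped between groups and neither passed (log2 fold change -0.075, SE 0.052, and -0.080, SE 0.060; edgeR, adjusted p = 0.247 and 0.286). ECHS1, the short-chain hydratase and the most abundant of the 31 in FPKM, averaged 81.9 ± 7.3 FPKM in treated cells and 89.9 ± 4.9 FPKM in control cells (SD, n = 3 each). It did not pass (log2 fold change -0.17, SE 0.0705, edgeR, adjusted p = 0.0569), but did without treated library 3 (-0.23, adjusted p = 0.00266) or without control library 2 (adjusted p = 0.0485), as well as with a filter at a mean of 5 FPKM (adjusted p = 0.0378). HADH, the short- and medium-chain hydroxyacyl-CoA dehydrogenase, had 4.30, 4.84 and 4.25 FPKM in treated libraries, against 4.97, 5.07 and 5.32 FPKM in control libraries. Its groups did not overlap and it fell (log2 fold change -0.24, SE 0.064, edgeR, adjusted p = 0.00635), though not in limma on log2(FPKM + 1) (adjusted p = 0.0600). ACAA2, the mitochondrial thiolase that closes the round, had 56.2, 59.0 and 66.8 FPKM in treated libraries, against 47.3, 48.5 and 48.0 FPKM in control libraries. ACAA2 rose with no overlap, and treated library 3 was again the highest (log2 fold change 0.30, SE 0.067, edgeR, adjusted p = 0.00156; 0.22 without that library).

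Of the auxiliary enzymes for unsaturated acyl groups none rose and 2 of 3 fell, where 25.3% of all tested genes rose and 25.3% fell. ECI2, an enoyl-CoA isomerase found in peroxisomes and mitochondria that moves double bonds into the position the spiral can use (ENSG00000198721, chromosome 6, 4115689 to 4135597, minus strand), had 11.03, 12.53 and 10.76 FPKM in pectolinarigenin libraries, against 16.1, 17.0 and 16.5 FPKM in control libraries. The treated values were all lower, by the largest fall among the tested genes of the pathway (log2 fold change -0.57, SE 0.065, 0.673-fold, edgeR, adjusted p = 5.15e-06). ECI1, the mitochondrial isomerase of the same reaction, had 17.2, 18.6 and 18.4 FPKM in treated libraries, against 16.2, 17.7 and 17.9 FPKM in control libraries, which overlap (log2 fold change 0.029, SE 0.065, edgeR, adjusted p = 0.735). ECI2 stood at 0.584 to 0.673 of the FPKM of ECI1 in treated libraries and at 0.919 to 0.995 in control libraries, given without a test for the same reason as above. DECR1, the mitochondrial dienoyl-CoA reductase for polyunsaturated chains, had 10.1, 10.1 and 10.3 FPKM in treated libraries, against 12.2, 11.3 and 11.3 FPKM in control libraries. It fell without overlap (log2 fold change -0.22, SE 0.062, edgeR, adjusted p = 0.00741). Exons of C6orf201 on the other strand cover 27.1% of those of ECI2, but that gene summed to 18 counts in treated and 34 in control libraries, against 2744 and 3968 for ECI2.

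Of the 3 genes of electron transfer 2 rose and 1 did not pass, where 25.3% of all tested genes rose and 25.3% fell. ETFA and ETFB encode the subunits of the electron transfer flavoprotein, and ETFDH the dehydrogenase that passes its electrons to ubiquinone. ETFB had 24.9, 26.6 and 30.0 FPKM in pectolinarigenin libraries, against 21.2, 22.4 and 22.6 FPKM in control libraries, with no overlap (log2 fold change 0.27, SE 0.0695, edgeR, adjusted p = 0.00516). Treated library 3 was the highest. With single libraries left out ETFB changed by 0.18 to 0.33 and passed each time (edgeR, adjusted p up to 0.0352). ETFA had 38.4, 40.9 and 47.2 FPKM in treated libraries, against 39.5, 36.5 and 36.3 FPKM in control libraries. Its groups overlapped and it did not pass (log2 fold change 0.13, SE 0.0745, edgeR, adjusted p = 0.145), except without treated library 1 (0.20, adjusted p = 0.0233), and it was 0.038 without treated library 3. ETFDH had 1.65, 1.56 and 1.66 FPKM in treated libraries, against 1.33, 1.02 and 1.07 FPKM in control libraries, and rose (log2 fold change 0.47, SE 0.093, edgeR, adjusted p = 0.000635). In treated libraries ETFDH summed to 2044 counts, against 11279 for ETFA and 9375 for ETFB. Listed exons cover 4493 bases in ETFDH, 5031 in ETFA and 6526 in ETFB. The gene lengths behind the FPKM are not given, so how far ETFDH lies below its partners is uncertain. Opposite-strand exons of PPID cover 10.9% of ETFDH exons, and PPID summed to 3346 counts in treated and 2442 in control libraries, beside 2044 and 1430 for ETFDH. The strand setting is not given, so reads in the shared stretch cannot be told apart.

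Of the 7 peroxisomal enzymes 2 rose, 3 fell and 2 did not pass, where 25.3% of all tested genes rose and 25.3% fell. With so few genes, this mix of directions is not read as a trait of the role. ACAA1, the peroxisomal thiolase (ENSG00000060971, chromosome 3, 38103129 to 38137242, minus strand), had 12.4, 13.2 and 14.0 FPKM in pectolinarigenin libraries, against 6.43, 7.29 and 7.17 FPKM in control libraries. It rose 1.85-fold, the largest rise among the enzymes that act on fatty acids (log2 fold change 0.89, SE 0.068, edgeR, adjusted p = 1.28e-07). Opposite-strand exons of DLEC1 cover 19.7% of ACAA1 exons, but DLEC1 summed to 33 counts in treated and 21 in control libraries, against 4969 and 2588 for ACAA1. HSD17B4, the D-bifunctional protein that handles branched chains and bile acid precursors, had 16.0, 16.2 and 17.8 FPKM in treated libraries, against 12.5, 11.4 and 11.9 FPKM in control libraries. It also rose without overlap (log2 fold change 0.45, SE 0.0625, edgeR, adjusted p = 3.38e-05). EHHADH, the L-bifunctional protein, carries out the same pair of reactions with the opposite stereochemistry. EHHADH had 17.4, 18.7 and 16.1 FPKM in treated libraries, against 20.9, 22.1 and 20.9 FPKM in control libraries, and fell (log2 fold change -0.33, SE 0.061, edgeR, adjusted p = 0.000392). Across libraries HSD17B4 stood at 0.864 to 1.11 times the FPKM of EHHADH in treated cells and at 0.517 to 0.596 times in control cells, a ratio chosen after its values were seen and given without a test. In counts HSD17B4 exceeded EHHADH in both groups (21970 and 4240 in treated, 15550 and 5202 in control libraries), with listed exons of 10664 and 4700 bases. The level of this ratio depends on the gene lengths behind the FPKM, which are not given, and is not read as near equality.

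The acyl-CoA oxidases take the first peroxisomal step. ACOX3, which acts on branched chains, had 2.79, 3.13 and 2.70 FPKM in pectolinarigenin libraries, against 3.53, 3.82 and 4.47 FPKM in control libraries, and fell without overlap (log2 fold change -0.49, SE 0.11, edgeR, adjusted p = 0.00174). ACOX2, the oxidase of bile acid intermediates, averaged 4.43 ± 0.25 FPKM in treated cells and 4.88 ± 0.28 FPKM in control cells (SD, n = 3 each) and did not pass (log2 fold change -0.18, SE 0.089, edgeR, adjusted p = 0.101). DECR2, the peroxisomal dienoyl-CoA reductase, had 9.48, 10.8 and 9.41 FPKM in treated libraries, against 11.5, 12.6 and 13.3 FPKM in control libraries. Like DECR1 it fell (log2 fold change -0.37, SE 0.075, edgeR, adjusted p = 0.000852). Exons of NME4 on the same strand cover 14.1% of those of DECR2, and NME4 summed to 4843 counts in treated and 6155 in control libraries, so the counts of DECR2 are uncertain to that extent. SCP2, which encodes a peroxisomal thiolase for branched chains and a lipid carrier, averaged 22.5 ± 1.1 FPKM in treated cells and 24.0 ± 1.1 FPKM in control cells (SD, n = 3 each). SCP2 did not pass (log2 fold change -0.13, SE 0.060, edgeR, adjusted p = 0.0874), but did without treated library 3 (-0.17, adjusted p = 0.0128) and with a filter at a mean of 5 FPKM (-0.14, adjusted p = 0.0445).

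**Figure D2:**
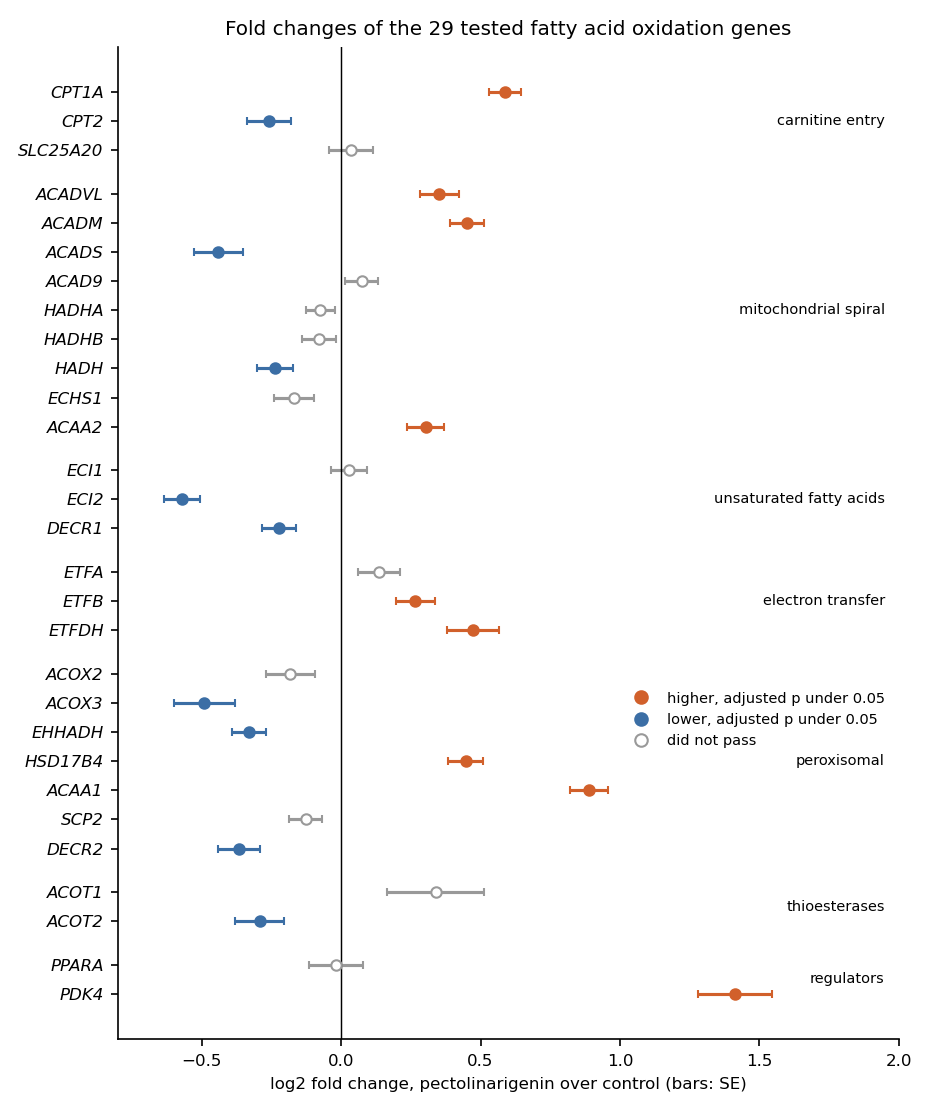
Log2 fold changes (pectolinarigenin over control, edgeR) of the 29 tested genes by role, with bars for 1 SE, orange for higher, blue for lower and open grey circles for genes that did not pass. PDK4 (1.41), ACAA1 (0.89) and CPT1A (0.59) lie farthest to the right, and ECI2 (-0.57) farthest to the left.

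The regulators differed from each other. PDK4 encodes a pyruvate dehydrogenase kinase, which limits the entry of glucose carbon into the citric acid cycle and is a known PPARA target (ENSG00000004799, chromosome 7, 95583499 to 95596491, minus strand). It had 3.21, 2.70 and 2.87 FPKM in pectolinarigenin libraries, against 1.25, 0.94 and 1.00 FPKM in control libraries, from 699 and 255 counts. The groups were well apart, and PDK4 was 2.66-fold higher in treated cells (log2 fold change 1.41, SE 0.13, edgeR, adjusted p = 8.45e-07). PPARA itself had 13.1, 11.5 and 8.84 FPKM in treated libraries, against 11.2, 11 and 10.8 FPKM in control libraries. The treated libraries lay on both sides of the control ones and PPARA did not pass (log2 fold change -0.020, SE 0.097, edgeR, adjusted p = 0.881), with its sign changing to 0.12 without treated library 3 (adjusted p = 0.0829). PPARGC1A, a coactivator of PPARA and of mitochondrial biogenesis, missed the expression filter. It had 41, 54 and 41 counts in treated libraries, against 41, 46 and 39 counts in control libraries, and these overlap (edgeR without an expression filter, log2 fold change 0.094, SE 0.22, adjusted p = 0.799).

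BDH1, which interconverts the ketone bodies acetoacetate and hydroxybutyrate in mitochondria, was the only listed gene of ketone formation and also missed the filter. It had 25, 23 and 40 counts in pectolinarigenin libraries, against 45, 56 and 52 counts in control libraries. All treated counts were below all control counts, although the depth of the libraries differs. In FPKM it had 0.13, 0.12 and 0.17 in treated libraries, against 0.20, 0.25 and 0.29 in control libraries, and without an expression filter it passed (edgeR, log2 fold change -0.83, SE 0.23, adjusted p = 0.00235).

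ACOT1 and ACOT2, the cytosolic and the mitochondrial acyl-CoA thioesterase, release free fatty acids from CoA and lie next to each other on chromosome 14 as near-identical copies, and how reads were shared out between them is unknown. ACOT1 had 2.0, 2.33 and 2.07 FPKM in pectolinarigenin libraries, against 1.56, 1.75 and 1.61 FPKM in control libraries. The groups did not overlap, but with 189 and 145 counts the gene did not pass (log2 fold change 0.34, SE 0.17, edgeR, adjusted p = 0.119), while it did in limma on log2(FPKM + 1) (adjusted p = 0.0332). ACOT2 had 6.05, 6.14 and 6.43 FPKM in treated libraries, against 7.12, 7.57 and 7.57 FPKM in control libraries, and fell (log2 fold change -0.29, SE 0.089, edgeR, adjusted p = 0.0128), though not without control library 2 (adjusted p = 0.0534).

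Summed over all 31 genes, the pathway had 632.3, 664.8 and 688.4 FPKM in pectolinarigenin libraries, against 608.0, 604.8 and 619.4 FPKM in control libraries. Every treated sum was above every control sum, by 1.08 times on average. Over all tested genes the median log2 fold change was 0.030 in limma on log2(FPKM + 1), beside 0.0007 in edgeR. The part of this shift in the sums was not tested. Carnitine entry summed to 99.1 ± 2.2 FPKM in treated cells and 76.2 ± 2.7 FPKM in control cells (SD, n = 3 each), of which CPT1A and SLC25A20 made nearly all. It took 14.1% to 15.6% of the pathway's FPKM in treated libraries and 12.1% to 12.7% in control libraries. The auxiliary enzymes for unsaturated chains took 5.73% to 6.21% in treated libraries and 7.32% to 7.61% in control libraries. The peroxisomal enzymes, with members moving both ways, took 12.7% to 13.4% in treated libraries and 13.9% to 14.1% in control libraries. The spiral held 50.8% to 53.0% in treated libraries and 52.2% to 52.9% in control libraries, which overlap. These sums are descriptions and weight abundant genes most. They also depend on the gene lengths behind the FPKM, which are not given.

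Ratios within a library do not depend on its scaling, and 4 were compared between groups with an exact 2-sided permutation test, in which 3 libraries against 3 cannot give a p below 0.1. HADHA stood at 1.70 ± 0.09 times the FPKM of HADHB in treated cells and 1.69 ± 0.03 times in control cells (SD, n = 3 each), a log2 difference of 0.0071 (exact p = 0.9, adjusted over the 4 ratios 0.9). The ETFA to ETFB ratio was 1.54, 1.54 and 1.57 in treated libraries, against 1.86, 1.63 and 1.61 in control libraries. Its groups do not overlap, though control library 1 stands apart from the other controls (log2 difference -0.13, exact p = 0.1, adjusted 0.133). ACAA1, the peroxisomal thiolase, stood at 0.221, 0.224 and 0.210 of the FPKM of the mitochondrial ACAA2 in treated libraries, against 0.136, 0.150 and 0.149 in control libraries (log2 difference 0.59, exact p = 0.1, adjusted 0.133). The ratio of the multifunctional enzymes moved the other way, with EHHADH at 0.296, 0.304 and 0.268 of the FPKM of HADHA in treated libraries, against 0.337, 0.363 and 0.335 in control libraries (log2 difference -0.26, exact p = 0.1, adjusted 0.133). None of the 4 could be called in a design of this size.

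**Figure D3:**
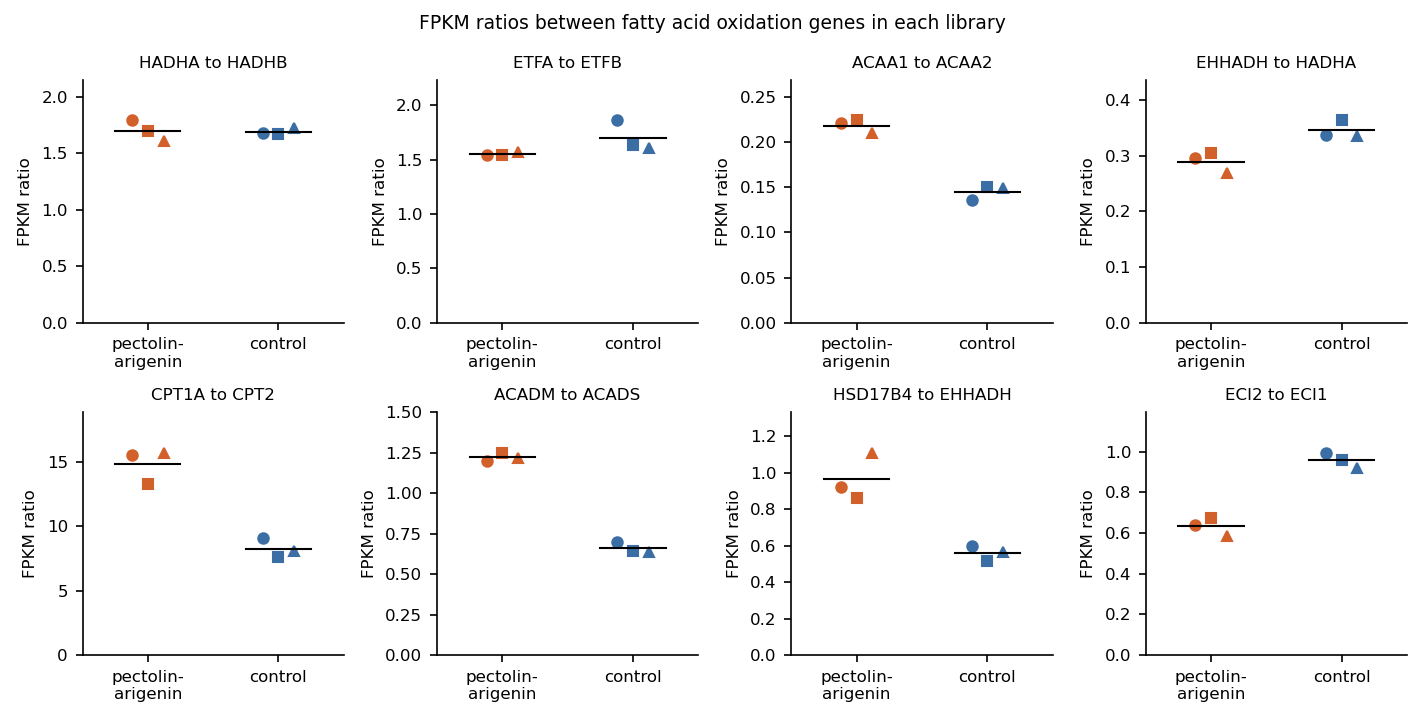
FPKM ratios between genes in each library, pectolinarigenin in orange left of control in blue, with 1 symbol per library number, a black line at the mean and axes from 0. The upper 4 were compared by an exact permutation test, and the lower 4 are descriptions, chosen after their values were seen. Of the upper 4, HADHA to HADHB overlaps between the groups, while the others do not. The lower 4 do not overlap either, which their choice made likely.

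Other genes of the pathway mostly fell where they changed. Of 36 further genes of fatty acid oxidation and its control, 30 were tested, 3 rose, 17 fell and 10 did not pass, with a median log2 fold change of -0.21. This is 66.7% called, beside 50.6% of all tested genes, of which 25.3% rose and 25.3% fell. PDK3, another pyruvate dehydrogenase kinase, fell to 2.37 ± 0.22 FPKM in pectolinarigenin-treated cells, against 4.04 ± 0.07 FPKM in control cells (SD, n = 3 each; log2 fold change -0.81, SE 0.075, edgeR, adjusted p = 7.78e-07). The ratio of PDK4 to PDK3 in FPKM was 1.15 to 1.29 in treated libraries and 0.228 to 0.312 in control libraries, again chosen after its values were seen. PECR, a peroxisomal enoyl-CoA reductase, fell to 7.54 ± 0.67 FPKM, against 11.97 ± 0.27 FPKM in control cells (SD, n = 3 each; log2 fold change -0.71, SE 0.077, edgeR, adjusted p = 3.34e-06). BDH2, a cytosolic relative of BDH1, changed by -0.57 (SE 0.071, edgeR, adjusted p = 1.13e-05). Among the rises were ESRRA, a nuclear receptor of mitochondrial genes (0.30, SE 0.071, edgeR, adjusted p = 0.00255), and its coactivator PPARGC1B (0.29, SE 0.088, adjusted p = 0.0141). PPARGC1B did not pass when control library 1, control library 3 or treated library 2 was left out (adjusted p = 0.0546, 0.0820 and 0.0507). The count of rises in this list was 1 without control library 1, control library 3 or treated library 2. ABCD2, a peroxisomal importer, had 0 counts in each of the 6 libraries, and 3 counts, the limit that a count of 0 allows by counting error alone, are 0.148 to 0.198 CPM depending on the library.

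Of 12 further genes known as PPARA targets, 8 were tested, 4 rose, 1 fell and 3 did not pass, with a median log2 fold change of 0.29. This is 62.5% called, beside 50.6% of all tested genes (25.3% higher and 25.3% lower). Without treated library 3, 2 fell. PLIN2, the lipid droplet coat protein, averaged 132.1 ± 28.95 FPKM in pectolinarigenin-treated cells and 46.3 ± 1.2 FPKM in control cells (SD, n = 3 each; log2 fold change 1.48, SE 0.11, edgeR, adjusted p = 1.2e-07). CREB3L3, a liver transcription factor of fasting, rose by 0.49 (SE 0.056, edgeR, adjusted p = 4.7e-06) and ACSL1, which activates long-chain fatty acids for oxidation or storage, by 0.34 (SE 0.055, adjusted p = 0.00012). FABP3, a fatty acid carrier best known from muscle, fell by 0.93 (SE 0.255, edgeR, adjusted p = 0.00661). CYP4A11 had 0 counts in every library, and CYP4A22, its close copy, had 1, 0 and 2 counts in treated libraries and 0 in each control library, so no fold is given. Of 15 tested genes of peroxisome biogenesis, CAT included, 1 rose, 4 fell and 10 did not pass. This is 33.3% called, beside 50.6% of all tested genes. PEX5, the import receptor for most peroxisomal enzymes, rose by 0.21 (SE 0.063, edgeR, adjusted p = 0.0135), but not without control library 2 (adjusted p = 0.0739), which left 0 rises. PEX26 (-0.57, SE 0.073, edgeR, adjusted p = 1.53e-05), PEX2 (-0.45, SE 0.081) and PEX19 (-0.19, SE 0.056), needed for import and membrane assembly, fell, though PEX19 did not pass without an expression filter (edgeR, adjusted p = 0.0694).

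**Figure D4:**
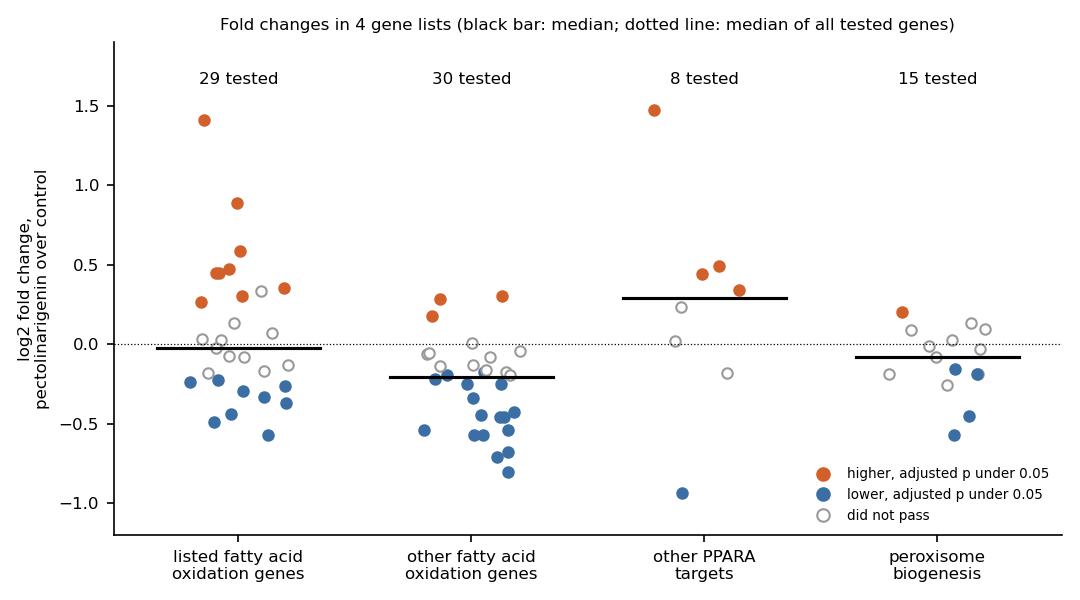
Log2 fold changes (pectolinarigenin over control, edgeR) of each tested gene in 4 lists, with 1 point per gene, orange for higher, blue for lower, open circles for genes that did not pass and black bars at medians of -0.020, -0.21, 0.29 and -0.077 from left to right. The 29 listed genes spread on both sides of 0, while 17 of 30 further oxidation genes were called lower, beside 25.3% of all tested genes.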

How the data were processed

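RNA was sequenced from 6 libraries of Huh-7 cells, 3 per group. The deposited table gives a raw count and an FPKM value per gene and library. The authors deposited whole-number counts per gene, not normalized, per the file headers and values. The deposited FPKM values, named so per the file headers, are scaled for gene length and library depth. The gene lengths used are not given, and for ETFDH, HSD17B4 and ACADM counts and FPKM do not match the listed exon lengths. Levels of different genes, their ratios and their sums depend on those lengths. The submitters' processing notes name cutadapt 1.9.1, HISAT2 2.0.1, HTSeq 0.6.1 and GRCh38. Which annotation was counted, with what strand setting, and where multi-mapped reads went is not given in the sources used here, so genes with shared exons or near-identical copies are uncertain.

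Genes with a mean FPKM of at least 1 over the 6 libraries were tested (12829 of 60605) with edgeR 4.0.16 in R 4.3.3, with TMM factors, the quasi-likelihood test, no covariate and 2-sided p-values. The Benjamini-Hochberg method adjusted p over every tested gene, and 0.05 was the threshold. SEs of log2 fold changes came from the F statistic. The common biological coefficient of variation was 0.0614. On simulated counts for 12829 genes, 93 of 100 genes changed 1.5-fold and 100 of 100 changed 2-fold were recovered, with 6 false calls. The simulation changed no other genes and used that 1 coefficient of variation for every gene and library. In the data 50.6% of tested genes were called, and treated libraries differed more among themselves than control libraries. The number of false calls may therefore not hold for the data. FPKM ratios were compared with exact permutation tests. Alternatives used DESeq2 1.42.0, limma 3.58.1 on log2(FPKM + 1) or log2(FPKM + 0.1), other scalings and filters, a replicate block and each library left out. Members, roles, gene lists and tests were chosen with earlier results of these data known. All members are named. Of each further list, up to 3 called genes with the smallest p in each direction are named, with genes at 0 counts in a group, and 1 gene that the rule selects is not reported here. Gene positions are from GENCODE 29 (GRCh38), and upstream sequences from RefSeq (GRCh38.p14).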

Additional observations from a re-analysis of the deposited data

How the results depend on the processing

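Of the fatty acid oxidation genes, 15 of the 18 called passed in every alternative in which they were tested, and none changed direction past the test. Counts of 7 to 10 higher and 7 to 11 lower were found over all alternatives. With the replicate block, 9 rose and 10 fell, ECHS1 being added (adjusted p = 0.0305). Whether the numbers pair the libraries is not known. Same-numbered libraries had correlations of deviations from group means of 0.0215, 0.00886 and 0.0262, and each correlated best with its own number. With 3 libraries per group, values this small cannot settle whether they are paired. Over all tested genes the block gave 3249 higher and 3291 lower, and ratios kept their values. With a mean FPKM of at least 5, only 7144 genes were tested, of which 2088 rose and 2010 fell. There the further oxidation genes had 1 higher and 10 lower and the further PPARA targets 0 lower. Genes under that level were not tested there, among them FABP3 (mean 1.23 FPKM), the 1 PPARA target called lower with all libraries. In limma with either pseudocount, further oxidation genes had 1 higher and peroxisome biogenesis 2 higher. Without an expression filter, 2 biogenesis genes fell. Leaving out single libraries gave 1 to 3 higher and 12 to 17 lower for the further oxidation genes, 1 to 2 lower for the PPARA targets and 0 to 1 higher and 3 to 4 lower for biogenesis. HILPDA, a lipid droplet gene among these PPARA targets at 0.023 with all libraries, was -0.44 without treated library 3 (adjusted p = 0.000524) and up to 0.29 without treated library 2. The cause of these shifts was not tested.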
